A study of Mus musculus with 14 samples.

Results

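A set of 50 genes of the cell cycle was followed through APEX-seq libraries of mouse small intestinal organoids (sIOs). They are listed genes of S phase and of G2/M, in a list that sets no threshold on their values but was drawn up with earlier results of these data known, and fall into 30 replication genes (the replication set) and 20 mitosis genes (the mitosis set). All 50 were found once by symbol among the 55401 genes of the count table. The sIOs were epithelial cultures grown from crypts of C57BL/6J adult mice of both sexes, and stably expressed 1 of 4 lentiviral APEX2 fusions carrying a V5 tag, with zsGreen expressed from the same transcript. APEX2 is a peroxidase that attaches biotin-phenol to nearby RNA when H2O2 is added. APEX2-V5-DPP4 sits at the apical membrane (4 libraries, DPP4), APEX2-V5-ACTB (4 libraries, ACTB) and APEX2-V5-GFP (4 libraries, GFP) are cytoplasmic, and MITO-V5-APEX2 is directed to mitochondria (the libraries labelled MITO-1 and MITO-1c). By the study's protocol, sIOs were kept in biotin-phenol some days after plating, H2O2 was added briefly, biotin-labeled RNA was bound to streptavidin, and cDNA was made on the beads. The study also made controls without H2O2. The paper compares mitochondria samples with and without H2O2, and MITO-1 and MITO-1c are the only MITO libraries here. The labels do not state which treatment each of them had, so they are called by their labels. The fusions were cloned into the lentiviral vector pLVX-IRES-ZsGreen1. The study corrected samples prepared on different dates for batch, but the date of each library, the number of mice behind the cultures and the origin of replicates of a bait are not given in the sources used here, so p-values measure only the spread between these libraries, which may be technical.

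DNA is copied once per cell cycle. The MCM2-7 helicase is loaded at origins in G1 by CDC6 and CDT1, is switched on with CDC45 and GINS in S phase, and is followed by primase, polymerases, the PCNA clamp and the enzymes that join lagging strand fragments. In G2 and mitosis, CDK1 with cyclins A and B, the Aurora and Polo kinases, motor proteins and kinetochore proteins build the spindle, and the anaphase promoting complex then ends mitosis. In the small intestine, stem cells and transit amplifying cells of the crypt divide, while enterocytes of the villus have left the cell cycle. Transcription of many replication genes is driven by E2F factors in G1 and S phase, and transcription of many mitosis genes peaks later through a promoter element called the CHR, often with CCAAT boxes.

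Both kinds of element could be read in the promoters of some members. They are shown because their shares differed between the sets by sequence alone, with no use of the counts. No element was in every gene of 1 set or absent from the other. RefSeq windows of GRCm38.p6 from 250 bases before to 50 bases after a start site were matched by symbol for 41 of the 50 members (25 replication and 16 mitosis genes). Both strands were searched for TTTCCCGC, TTTGGCGC, TTTCGCGC or TTTGCCGC (E2F), for TTTGAA or TTCGAA (CHR) and for CCAAT. The strings of 1 kind do not contain those of another kind, but E2F matches can overlap each other. E2F letters were in 11 of 25 replication genes (44.0%) and 1 of 16 mitosis genes (6.25%, Cdk1), against 2.60% of all 27025 genes with a window. CHR letters were in 5 of 25 replication genes (20%) and 13 of 16 mitosis genes (81.2%), against 21.7% of all genes. CCAAT was in 15 of 25 replication genes (60%) and 15 of 16 mitosis genes (93.8%), against 41.1% of all genes. Both CHR letters and CCAAT were in 4 of 25 replication genes (16.0%) and 13 of 16 mitosis genes (81.2%), against 8.61% of all genes. A match is a string of letters in this window and no evidence that a factor binds. Examples from members described below follow, 28 bases each, 5′ to 3′ on the strand of the gene, with the matched letters in capitals.
Mcm6, E2F, chr1:128359735-128359762, minus strand: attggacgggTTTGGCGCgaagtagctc
Cdc6, E2F on the other strand, chr11:98908003-98908030, plus strand: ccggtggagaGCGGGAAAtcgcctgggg
Uhrf1, E2F, chr17:56304118-56304145, plus strand: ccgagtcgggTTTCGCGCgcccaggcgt
Cdk1, CHR, chr10:69352911-69352938, minus strand: accgcggcgagTTTGAAactgctggcac
Kif11, CHR on the other strand, chr19:37376352-37376379, plus strand: cgtctccatttTTCAAAattgaggcgcg
Top2a, CHR on the other strand, chr11:99024196-99024223, minus strand: ctagataaaggTTCAAAtgaaactaggg
Ube2c, CHR on the other strand, chr2:164769889-164769916, plus strand: gagggttgcaaTTCAAAcgcgggcggcg
Plk1, CHR, chr7:122159454-122159481, plus strand: ccagcgccgcgTTTGAAttcggggagga

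The libraries held 9442594 to 36492010 counts each, and 12708 to 18122 genes had at least 10 counts. The 4 epithelial markers (Epcam, Cdh1, Krt8 and Vil1) were found in every library. Markers of mesenchymal cells summed to at most 2.02 normalized CPM, and those of immune and endothelial cells to at most 7.66, so both were near 0. Markers of the mature cell types varied widely between libraries of 1 bait: enterocyte markers summed to 821 to 98077 normalized CPM in DPP4, 192 to 55940 in ACTB and 622 to 52170 in GFP. Normalized CPM are CPM (counts scaled to a common library total) after TMM, edgeR's correction for composition. The 2 libraries most alike across all genes were of different baits, DPP4 replicate 4 and GFP replicate 1. Over 9713 genes with a mean of at least 10 normalized CPM their median absolute log2 difference was 0.35, the smallest of all 91 pairs. Over the 49 detected members it was 0.25, again the smallest, and 0 of the 49 were over 2-fold apart.

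DPP4 replicate 1, GFP replicate 2 and MITO-1 held little RNA of either set. The replication set summed to 247, 1397, 1473 and 1597 normalized CPM in DPP4 replicates 1 to 4, 534, 646, 957 and 1539 in ACTB replicates 1 to 4, 1758, 319, 519 and 1497 in GFP replicates 1 to 4, 435 in MITO-1 and 858 in MITO-1c. The mitosis set summed to 100, 1824, 1561 and 1596 normalized CPM in DPP4 replicates 1 to 4, 732, 572, 725 and 1228 in ACTB replicates 1 to 4, 1451, 119, 862 and 1430 in GFP replicates 1 to 4, 105 in MITO-1 and 878 in MITO-1c. In each set DPP4 replicate 1, GFP replicate 2 and MITO-1 were the lowest of the 14 libraries, whether the set was summed on normalized CPM, summed on CPM, taken as the mean of log2 values, as the median member, or without the 7 members that share over 10% of their exon bases with an opposite-strand gene. Their order among themselves changed with the measure in the mitosis set. At the other end GFP replicate 1 was the highest library in the replication set and DPP4 replicate 2 in the mitosis set. These are bulk libraries of captured RNA, so fewer cycling cells and less labeled RNA of these genes per cell cannot be told apart.

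**Figure D1:**
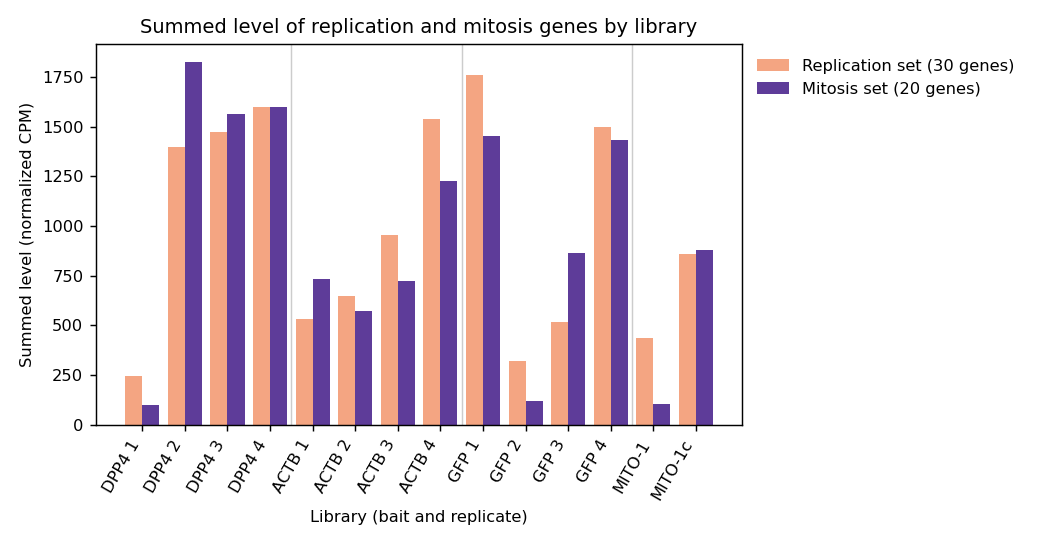
Summed normalized CPM of the replication genes (30, orange bars) and the mitosis genes (20, purple bars) in each of the 14 libraries, by bait and replicate. DPP4 replicate 1 (247 and 100), GFP replicate 2 (319 and 119) and MITO-1 (435 and 105) are the lowest in both sets.

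DPP4 replicate 1 had 29209062 counts and GFP replicate 2 had 31502675, MITO-1 had 18268471 and MITO-1c 18716681. DPP4 replicate 4 and GFP replicate 4, with high sums, were the shallowest with 9763053 and 9442594 counts, and MITO-1 came next. The 50 members took 0.0279% of all counts in DPP4 replicate 1, 0.0419% in GFP replicate 2 and 0.0496% in MITO-1, against 0.11% to 0.379% in the other 11 libraries. Fewer than 10 counts were found for 4 replication and 1 mitosis genes in DPP4 replicate 1, for 8 and 5 in GFP replicate 2, and for 8 and 8 in MITO-1. In the other 11 libraries every mitosis gene had at least 10 counts, and 1 to 5 replication genes, Cdt1 included, had fewer.

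Crypt stem cell markers were lowest in DPP4 replicate 1 and GFP replicate 2, while MITO-1 lay within the range of the other libraries. The 7 stem cell markers, Lgr5 and Olfm4 among them, summed to 22.1 normalized CPM in DPP4 replicate 1, 71.7 in GFP replicate 2 and 116 in MITO-1, against 91.5 to 596 in the other 11. Lgr5 was at 0 in 2 of the 14 libraries, Olfm4 in 3 and Ascl2 in 3. Enterocyte markers were highest in DPP4 replicate 1 (98077 normalized CPM), but at 20656 in GFP replicate 2 and 13540 in MITO-1 they were below ACTB replicate 2 (55940) and GFP replicate 3 (52170), whose mitosis sums were 572 and 862. Goblet cell markers were highest in GFP replicate 2, at 13055 normalized CPM. Across the 12 libraries of the 3 baits, the mean log2 level of the mitosis set had a Pearson r of 0.88 and a Spearman rho of 0.90 with the log2 stem cell sum (r = 0.83 without the 2 libraries farthest from the median), and an r of -0.58 and a rho of -0.55 with the log2 enterocyte sum (r = -0.40 without 2). These are descriptions over 12 libraries that share a scaling factor in both measures. The part of cell composition in the differences between libraries was not tested.

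**Figure D2:**
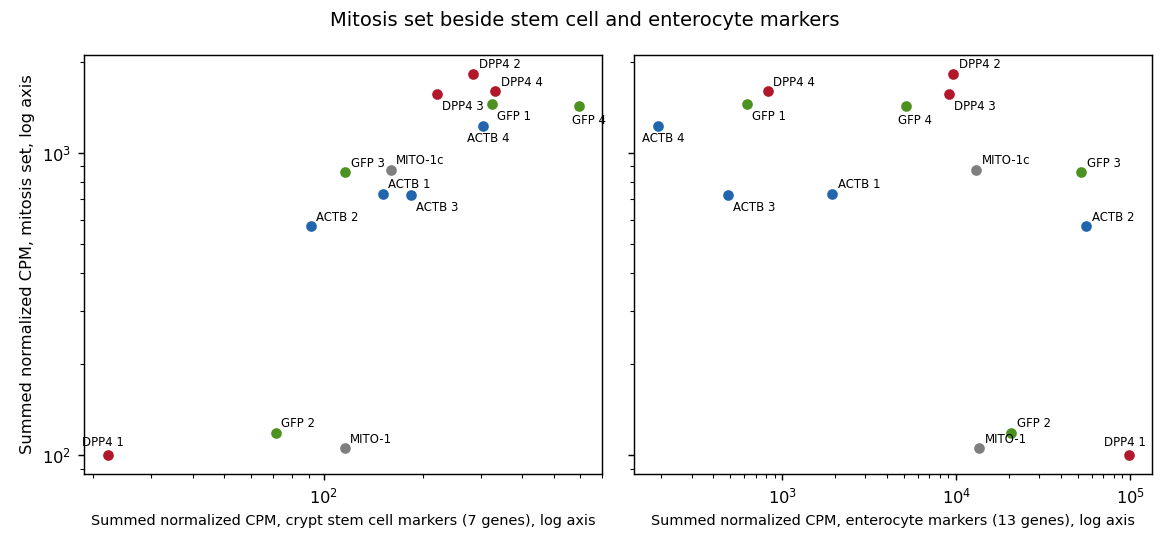
Summed normalized CPM of the mitosis genes (vertical, log axis) against the summed normalized CPM of 7 crypt stem cell markers (left) and 13 enterocyte markers (right, log axes), 1 point per library, DPP4 in red, ACTB in blue, GFP in green and MITO in gray. DPP4 replicate 1 and GFP replicate 2 lie lowest on both axes of the left panel among the baits with 4 libraries, while enterocyte sums of 52170 and 55940 stand beside mitosis sums of 862 and 572.

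The sets moved together between libraries but not in equal measure. Their mean log2 levels had a Pearson r of 0.92 and a Spearman rho of 0.93 over the 12 libraries (r = 0.85 without 2), again with a shared scaling factor. The log2 ratio of the mitosis sum over the replication sum needs no scaling between libraries. It was -1.30, 0.38, 0.08 and -0.00 in DPP4 replicates 1 to 4, 0.45, -0.18, -0.40 and -0.32 in ACTB replicates 1 to 4, -0.28, -1.43, 0.73 and -0.07 in GFP replicates 1 to 4, -2.05 in MITO-1 and 0.03 in MITO-1c. The lowest ratios thus stood in the 3 low libraries, and the highest in GFP replicate 3. By bait the ratio averaged -0.21 ± 0.75 in DPP4, -0.11 ± 0.39 in ACTB and -0.26 ± 0.89 in GFP (SD, n = 4 each), with overlap of all 3 baits. In DPP4 replicate 1 the ratio rested on a pair of genes: Chaf1a and Pcna made up 52.9% of its replication sum. On the mean of log2(normalized CPM + 1) no gene dominates. Mitosis minus replication was then 0.04 in DPP4 replicate 1, -0.34 in GFP replicate 2 and -1.09 in MITO-1. In the other 11 libraries it was 0.49 to 1.78. The added 1 draws differences toward 0 where levels are low, as they were in the 3 low libraries.

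Members varied more between replicates of a bait than most genes did. The pooled SD of log2 level within baits had a median of 1.68 over the 25 replication genes with a mean of at least 10 normalized CPM and 1.77 over the 19 such mitosis genes, against 0.87 over all 9713 genes of that level. Among the 49 detected members the SD ran from 0.50 (Gins2) to 2.58 (Mcm3). GFP replicate 2 was the lowest of the 12 libraries for 21 of the 49 detected members and DPP4 replicate 1 for 15, whereas GFP replicate 1 was the highest for 12. DPP4 replicate 3 stood at both ends, as the highest library for 10 members (Mcm3, Mcm6, Fen1, Uhrf1, Cdk1, Aurka, Bub1b, Plk1, Kif11 and Kif23) and the lowest for 5 (Pcna, Gins1, Rfc3, Rfc4 and Ccne2). GFP replicate 3 was the lowest for 6 members, all of them replication genes. Over the 12 libraries, a mitosis gene had a median r of 0.88 with the mean of the rest of its set (20 genes, lowest 0.45 for Stmn1) and a replication gene one of 0.75 (29 genes), as a description with a shared scaling factor. The replication genes furthest from their set were Pcna (r = -0.29) and Rfc3 (r = 0.14).

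**Figure D3:**
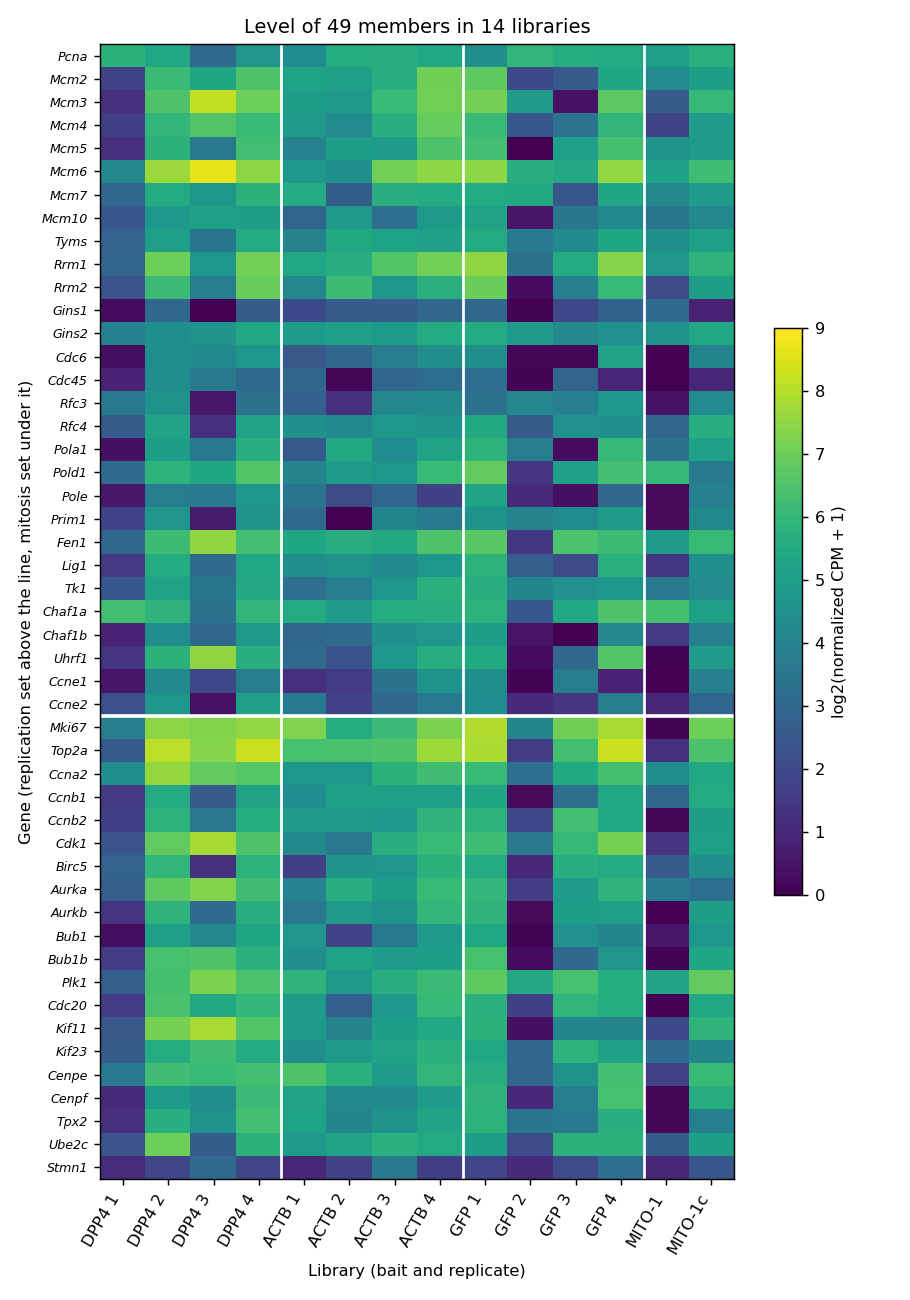
Level of 49 members (Cdt1, at 0 in all, left out) as log2(normalized CPM + 1), from 0 (dark) to 9 (yellow), in 14 libraries; replication genes above the white line and mitosis genes under it. Dark columns mark DPP4 replicate 1, GFP replicate 2 and MITO-1, and DPP4 replicate 3 is bright for Mcm6 and dark for Gins1 and Ccne2.

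Of the licensing factors, Cdc6 loads the helicase at origins. Cdc6 was at 0.255, 21.3, 18.5 and 25.7 normalized CPM in DPP4 replicates 1 to 4, 4.73, 7.13, 13.1 and 21.3 in ACTB replicates 1 to 4 and 20.9, 0.0994, 0.0974 and 35.5 in GFP replicates 1 to 4. It was thus near 0 in DPP4 replicate 1, GFP replicate 2 and GFP replicate 3, and the baits overlapped. Cdt1, its partner in licensing (chr8:122568015-122573554), was listed at 0 in all 14 libraries and shares no exon bases with another annotated gene; why it is at 0 was not tested.

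Mcm6, a subunit of the MCM2-7 ring (chr1:128331590-128359664 in GRCm38), had the most counts of the helicase genes. Mcm6 was at 17.7, 202, 405 and 171 normalized CPM in DPP4 replicates 1 to 4, 26.9, 21.7, 134 and 175 in ACTB replicates 1 to 4 and 177, 49.3, 42.4 and 186 in GFP replicates 1 to 4. The DPP4 libraries held both the lowest and the highest value of the 12. Cdc45 was at 0.808, 20.5, 12.4 and 7.38 normalized CPM in DPP4 replicates 1 to 4, 7.25, 0.109, 6.71 and 8.35 in ACTB replicates 1 to 4 and 8.28, 0.0662, 6.30 and 0.922 in GFP replicates 1 to 4. Cdc45, which joins the ring to form the active helicase, was under 1 in 4 of the 12 libraries. The other ring subunits were lowest in DPP4 replicate 1 (Mcm2 2.60 and Mcm4 2.17), GFP replicate 3 (Mcm3 0.357 and Mcm7 4.32) or GFP replicate 2 (Mcm5, 0 counts). The GINS subunit Gins2 changed least of all members, from 14.4 to 45.8, but 67.3% of its exon bases overlap Gse1 on the opposite strand.

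Pcna, the sliding clamp that holds polymerases on DNA (chr2:132249162-132253314), had the lowest r with the rest of its set. Pcna was at 54.3, 41.0, 7.60 and 24.8 normalized CPM in DPP4 replicates 1 to 4, 19.6, 47.0, 48.2 and 40.7 in ACTB replicates 1 to 4 and 21.5, 57.8, 46.2 and 44.2 in GFP replicates 1 to 4. Its highest values of the 12 were in GFP replicate 2 and DPP4 replicate 1, which were low for the set, and its lowest was in DPP4 replicate 3. Of its sequence 19.1% is shared with the pseudogene Pcna-ps2, so its level is uncertain. Rfc3 and Rfc4, subunits of the clamp loader, were lowest in DPP4 replicate 3, at 0.502 and 1.38.

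Of the polymerase genes, Pold1, the catalytic subunit of DNA polymerase delta, had the most counts. Pold1 was at 7.83, 55.0, 39.4 and 92.9 normalized CPM in DPP4 replicates 1 to 4, 15.2, 28.7, 25.3 and 65.2 in ACTB replicates 1 to 4 and 113, 1.59, 33.1 and 78.4 in GFP replicates 1 to 4. It was highest in GFP replicate 1 and lowest in GFP replicate 2. Prim1 was at 2.51, 24.9, 0.565 and 22.8 normalized CPM in DPP4 replicates 1 to 4, 7.36, 0, 15.6 and 12 in ACTB replicates 1 to 4 and 22.9, 15.2, 19.7 and 29.6 in GFP replicates 1 to 4. Prim1, the catalytic subunit of primase, had 0 counts in ACTB replicate 2 and was not low in GFP replicate 2. Pola1 and Pole, catalytic subunits of polymerases alpha and epsilon, were lowest in GFP replicate 3 (0.227 and 0.292).

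Fen1, the flap endonuclease that trims lagging strand fragments, had the most counts of the genes of its role. Fen1 was at 6.85, 70.6, 183 and 78.4 normalized CPM in DPP4 replicates 1 to 4, 39.4, 47.7, 42.9 and 88.7 in ACTB replicates 1 to 4 and 103, 1.66, 85.7 and 70.3 in GFP replicates 1 to 4. Its highest level was in DPP4 replicate 3 and its lowest in GFP replicate 2, and 84.2% of its exon bases overlap Tmem258 and Gm10143 on the opposite strand. Rrm1, the large subunit of ribonucleotide reductase, led the genes of nucleotide supply. Rrm1 was at 6.38, 127, 25.6 and 133 normalized CPM in DPP4 replicates 1 to 4, 39.8, 48.1, 94.2 and 133 in ACTB replicates 1 to 4 and 179, 9.24, 45.6 and 164 in GFP replicates 1 to 4. It was under 10 in DPP4 replicate 1 and GFP replicate 2 only and followed its set closely (r = 0.96).

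Chaf1a, a subunit of the chromatin assembly factor that loads histones behind the fork, stood apart from the set in DPP4 replicate 1. Chaf1a was at 76.3, 56.8, 9.48 and 59.7 normalized CPM in DPP4 replicates 1 to 4, 44.8, 29.5, 46.5 and 47.7 in ACTB replicates 1 to 4 and 54.9, 4.57, 41.1 and 89.0 in GFP replicates 1 to 4. DPP4 replicate 1 was the second highest library of the 12 for Chaf1a, and 52.5% of its exon bases overlap Ubxn6 on the opposite strand. Uhrf1 was at 1.62, 54.3, 181 and 48.4 normalized CPM in DPP4 replicates 1 to 4, 7.63, 3.84, 26.9 and 48.1 in ACTB replicates 1 to 4 and 42.9, 0.232, 6.75 and 96.0 in GFP replicates 1 to 4. Uhrf1, which binds hemimethylated DNA behind the fork, was highest in DPP4 replicate 3. Ccne2 was at 3.62, 26.1, 0.314 and 33.5 normalized CPM in DPP4 replicates 1 to 4, 11.8, 2.35, 7.23 and 11.45 in ACTB replicates 1 to 4 and 19.7, 1.09, 1.59 and 13.2 in GFP replicates 1 to 4. Ccne2, a cyclin E that acts with CDK2 at the entry into S phase, was under 4 in DPP4 replicates 1 and 3, ACTB replicate 2 and GFP replicates 2 and 3.

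Of the mitotic cyclins and their kinase, Ccna2 encodes cyclin A2 (chr3:36564865-36572150) and Cdk1 the kinase that drives entry into mitosis (chr10:69335146-69352938). Ccna2 was at 20.1, 190.3, 114 and 97.0 normalized CPM in DPP4 replicates 1 to 4, 25.8, 25.6, 54.0 and 75.2 in ACTB replicates 1 to 4 and 67.0, 8.81, 43.6 and 80.3 in GFP replicates 1 to 4. Cdk1 was at 4.17, 112, 221 and 89.8 normalized CPM in DPP4 replicates 1 to 4, 18.6, 11.1, 49.1 and 67.6 in ACTB replicates 1 to 4 and 72.6, 11.1, 64.4 and 142 in GFP replicates 1 to 4. Both were lowest in DPP4 replicate 1 or GFP replicate 2 and highest in DPP4 replicates 2 or 3. Of the Ccna2 exon bases, 12.5% overlap Exosc9 on the opposite strand. Ccnb1 and Ccnb2, the B cyclins, ran from 0.166 to 43.9 and from 2.30 to 76.3, and 23.4% of the Ccnb1 sequence is shared with Ccnb1-ps and other pseudogenes.

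Plk1, the Polo kinase that matures centrosomes and spindle poles, had the most counts of the kinases and checkpoint genes. Plk1 was at 5.62, 79.4, 150.3 and 86.1 normalized CPM in DPP4 replicates 1 to 4, 57.0, 28.4, 50.6 and 69.6 in ACTB replicates 1 to 4 and 109, 41.9, 81.7 and 47.0 in GFP replicates 1 to 4. It was low in DPP4 replicate 1 but not in GFP replicate 2, where it and Mki67 made up 48.7% of the mitosis sum. Aurka, Aurkb, Bub1 and Bub1b were at or under 5.53 in both of these libraries. Ube2c was at 4.21, 128, 5.34 and 54.2 normalized CPM in DPP4 replicates 1 to 4, 28.2, 35.6, 51.3 and 44.3 in ACTB replicates 1 to 4 and 31.1, 3.28, 54.7 and 54.0 in GFP replicates 1 to 4. Ube2c, a ubiquitin-conjugating enzyme of the anaphase promoting complex, was low in DPP4 replicate 3 as well.

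Kif11, the motor that pushes spindle poles apart (chr19:37376403-37421859), had the largest fold change of the members in both comparisons of DPP4. Kif11 was at 4.72, 141, 228 and 93.5 normalized CPM in DPP4 replicates 1 to 4, 28.9, 15.5, 31.2 and 39.9 in ACTB replicates 1 to 4 and 53.6, 0.298, 16.5 and 16.0 in GFP replicates 1 to 4. All values over 60 were in DPP4 replicates 2, 3 and 4, but DPP4 replicate 1 lay below every ACTB library. Cenpe was at 11.4, 74.1, 65.7 and 76.7 normalized CPM in DPP4 replicates 1 to 4, 88.1, 52.6, 29.0 and 58.8 in ACTB replicates 1 to 4 and 50.8, 6.76, 23.2 and 78.5 in GFP replicates 1 to 4. Cenpe, a kinetochore motor, was highest in ACTB replicate 1. Top2a was at 4.89, 276, 166 and 306 normalized CPM in DPP4 replicates 1 to 4, 81.7, 85.2, 90.3 and 206 in ACTB replicates 1 to 4 and 237, 2.12, 77.1 and 311 in GFP replicates 1 to 4. Top2a, the topoisomerase that untangles sister chromosomes, followed its set most closely of all members (r = 0.99). Mki67, the proliferation antigen that coats mitotic chromosomes, ran from 14.2 (DPP4 replicate 1) to 243 (GFP replicate 1), and Stmn1, which destabilizes microtubules, from 0.968 to 12.1.

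Between baits, neither set differed beyond the spread of replicates. The replication set averaged 1178 ± 626 normalized CPM in DPP4, 919 ± 450 in ACTB and 1023 ± 710 in GFP, and the mitosis set 1270 ± 789, 814 ± 286 and 965 ± 627 in that order (SD, n = 4 each), with overlap in every pair. Of the 49 members tested (Cdt1 was filtered out), edgeR's quasi-likelihood test called 0 in each comparison where a call needed over 2-fold and an adjusted p below 0.05, and DESeq2 called 0 members too. The background was as low, as edgeR called 0.0% of 26136 genes in DPP4 against GFP. It called 0.0% of 27451 in DPP4 against ACTB and 0.0% of 26470 in ACTB against GFP. DESeq2 called 53, 141 and 73 genes. The paper, with edgeR after batch correction and removal of poor libraries, reported many transcripts enriched with DPP4 and many with GFP. The calls here were made on counts without that correction, over more genes. The median standard error of a member's log2 fold change was 1.02, 0.79 and 0.88 in these comparisons. The 3 comparisons share libraries, and those of each bait enter 2 of them.

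In DPP4 against GFP, the question is which RNA lies near the apical membrane rather than in the cytoplasm. A fold change above 0 was found for 27 of 49 members, against 14003 of 26136 genes tested. Members moved together between libraries, so such counts do not add up independent signs. The median log2 fold change was -0.00 over 29 replication genes and 0.23 over 20 mitosis genes, against 0.09 over all genes. At an unadjusted p under 0.05, 0 members were higher and 0 lower, where the background was 4.16% higher and 1.71% lower. The groups did not overlap for 0 members, against 0.713% (higher) and 1.82% (lower) of genes with a mean of at least 1 normalized CPM. The smallest p was that of Ccna2, at 105 ± 69.8 normalized CPM in DPP4 and 49.9 ± 31.3 in GFP (log2 fold change 1.08, SE 0.67, edgeR adjusted p = 1.0). The mitosis median was -0.10 without GFP replicate 2 and 0.63 without DPP4 replicate 1, and the replication median -0.40 without DPP4 replicate 4 and 0.34 without DPP4 replicate 1.

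In DPP4 against ACTB, 34 of 49 members had a fold change above 0, against 14297 of 27451 genes tested. The median was 0.14 over the replication genes and 0.46 over the mitosis genes, against 0.05 over all genes. Kif11 was at 117 ± 93.1 normalized CPM in DPP4 and 28.8 ± 10.1 in ACTB (log2 fold change 2.11, SE 0.79, edgeR adjusted p = 0.806, two-sided exact permutation p = 0.14 on the levels). Ccna2 was at 105 ± 69.8 in DPP4 and 45.2 ± 24.1 in ACTB (log2 fold change 1.31, SE 0.63, edgeR adjusted p = 0.807). These 2 mitosis genes were the only members higher at an unadjusted p under 0.05, where the background was 3.95%, and 0 were lower, where it was 2.22%. The groups did not overlap for 0 members, against 0.890% higher and 2.14% lower of all genes. The mitosis median was 0.24 without ACTB replicate 2 and 0.85 without DPP4 replicate 1, and the replication median -0.24 without DPP4 replicate 2 and 0.57 without ACTB replicate 4.

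In ACTB against GFP, which sets the cytoplasmic baits against each other, 31 of 49 members had a fold change below 0. Of all genes tested, 11964 of 26470 did. The median was -0.17 over the replication genes and -0.15 over the mitosis genes, against 0.11 over all genes. Cdk1 had the smallest p, at 36.6 ± 26.4 normalized CPM in ACTB and 72.5 ± 53.7 in GFP (log2 fold change -1.0, SE 0.69, edgeR adjusted p = 0.959). At an unadjusted p under 0.05, 0 members were higher or lower, where the background was 3.22% higher and 2.40% lower, and the groups did not overlap for 0 members, against 1.60% and 0.899%. The mitosis median was -0.53 without ACTB replicate 4 and 0.11 without GFP replicate 4, and the replication median -0.47 without GFP replicate 2 and 0.35 without GFP replicate 1.

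**Figure D4:**
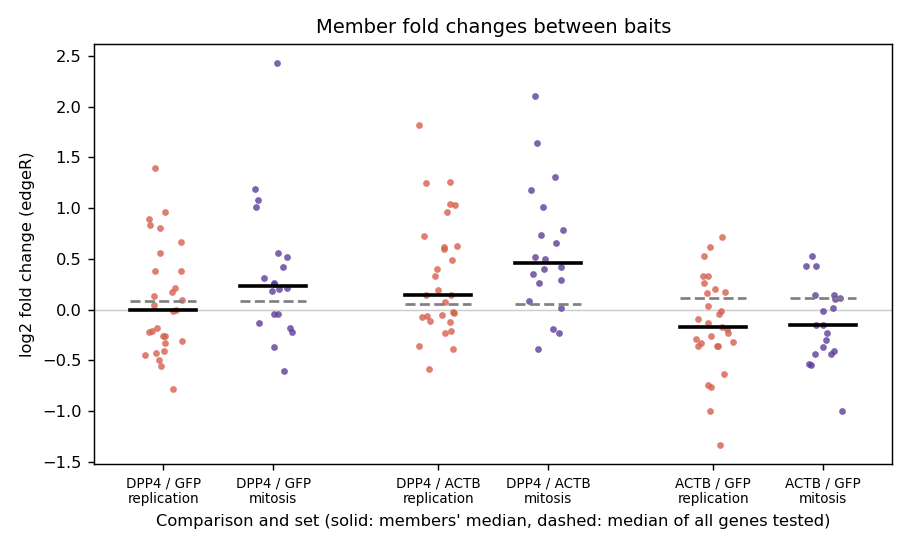
edgeR log2 fold changes of 29 replication genes (red) and 20 mitosis genes (purple) in DPP4 over GFP, DPP4 over ACTB and ACTB over GFP, 1 point per gene; solid lines are the medians of the members and dashed lines the medians of all genes tested. Member medians lie between -0.17 and 0.46, and points spread from -1.33 to 2.43.

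Other genes of the pathway were taken from 4 fixed lists. The edgeR test called 0 of 34 other replication genes and 0 of 48 other mitosis genes in any comparison. It also called 0 of 17 G1/S regulators and 0 of 11 inhibitors and exit genes. As it called 0.0% of all genes in each comparison, these counts say nothing particular about the lists. In DPP4 against GFP, 0 of the listed genes passed an unadjusted p under 0.05. In DPP4 against ACTB 3 did, all with higher values in DPP4, where the background was 3.95% of all genes, so their number does not stand out: E2f2, an E2F activator of S-phase genes (38.8 ± 22.6 normalized CPM in DPP4 and 6.21 ± 6.34 in ACTB, log2 fold change 2.72, SE 0.81, edgeR adjusted p = 0.806), E2f7, an E2F repressor (13.9 ± 12 in DPP4 and 2.44 ± 2.50 in ACTB), and Rpa2, a subunit of the single-strand binding protein (35.5 ± 20.3 in DPP4 and 14.2 ± 3.10 in ACTB). In ACTB against GFP 0 did, and E2f2 came closest, at 6.21 ± 6.34 in ACTB and 23.9 ± 12.9 in GFP (log2 fold change -1.95, SE 0.92, edgeR adjusted p = 0.814). The median log2 fold changes in DPP4 against GFP, DPP4 against ACTB and ACTB against GFP were 0.21, -0.06 and 0.18 for the other replication genes, 0.10, 0.32 and -0.15 for the other mitosis genes, 0.10, 0.29 and -0.21 for the G1/S regulators and 0.47, -0.19 and 0.70 for the inhibitors and exit genes. Cdkn1c, the CDK inhibitor p57, was the only gene of the 4 lists whose baits did not overlap, where the background was 0.713% of all genes in DPP4 against GFP and 1.60% in ACTB against GFP. It was at 5.19 ± 0.502 normalized CPM in DPP4, 6.05 ± 2.98 in ACTB and 0.894 ± 1.20 in GFP, and passed no edgeR test in DPP4 against GFP (log2 fold change 2.52, SE 1.62, adjusted p = 1.0) or ACTB against GFP (2.78, SE 1.68, adjusted p = 0.872). Its mean in GFP lay under the limit of 1 normalized CPM, which it passed only through the other bait. Its two-sided exact permutation p was 0.029 both times, with no adjustment for the number of genes looked at. That is the smallest value that 4 against 4 allows, and groups that do not overlap must give it. Cdkn1c was among the listed genes named by smallest p and is described here for that lack of overlap, so this permutation p adds no support.

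By library, the other lists differed in how far they followed the members. The 48 other mitosis genes summed to 164 normalized CPM in DPP4 replicate 1, 172 in GFP replicate 2 and 227 in MITO-1, against 821 to 1966 in the other 11 libraries. The 34 other replication genes summed to 463, 439 and 423 in these libraries, against 540 to 1086. The G1/S regulators summed to 572, 841 and 925, against 931 to 2021. The inhibitors and exit genes summed to 787, 883 and 1208, within or above the range of 518 to 1145 in the other 11.

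The genes most like the members were sought among the other 9669 genes with a mean of at least 10 normalized CPM, by Pearson's r with the mean log2 level of the 49 members over the 12 libraries. Of the 20 most alike, 11 were on the list of other mitosis genes, and 0 on that of other replication genes, where 70 of the 9669 genes were on either list. Ect2, an activator of cell division by a contractile ring, led with r = 0.97 (0.331 to 96.9 normalized CPM). Dtl, a subunit of the ligase that removes CDT1 (0.0994 to 47.5), Cenpa, the centromeric histone (0.199 to 76.4), and Racgap1, a partner of Ect2 in the ring (0.265 to 97.7), followed with r = 0.95 each. The most opposite were Plscr1 (r = -0.93, 50.6 to 521), Sbds (r = -0.93, 50.2 to 164), Sec22b (r = -0.91, 56.0 to 194) and the goblet cell gene Zg16 (r = -0.90, 1.40 to 703). The 12 points share a scaling factor and come from 3 baits.

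The members also differed between the libraries labelled MITO-1 and MITO-1c, which carry 1 fusion. These libraries may differ in H2O2 treatment, so the ratios need not compare like libraries. With 1 library each there is no replicate check, and the intervals hold only the error of counting, as reads were amplified. The median log2 ratio of CPM, with 0.5 counts added, was -2.06 over 29 replication genes and -4.81 over 20 mitosis genes, against -0.29 over 15960 genes with at least 5 counts. More than 2-fold lower in MITO-1 were 18 of the 29 replication genes and 19 of the 20 mitosis genes, where the background was 31.7%, and more than 2-fold higher were 3 and 0, where it was 17.8%. With TMM scaling these medians were -1.84, -4.59 and -0.07.

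Mki67 had 1 count in MITO-1 and 2583 in MITO-1c (log2 ratio -10.70, 95% interval -16.60 to -8.82). Top2a had 22 and 1679 (-6.19, -6.90 to -5.62), and Cdk1 had 26 and 676 (-4.64, -5.29 to -4.10). Plk1 kept more, with 628 counts in MITO-1 and 2263 in MITO-1c (-1.81, -1.94 to -1.69). Cdc20, the activator of the anaphase promoting complex, had 0 counts in MITO-1 and 816 in MITO-1c, and was at least 265-fold lower in MITO-1. Aurkb, 0 and 616, was at least 200-fold lower (both bounds set 3 counts in MITO-1). Aurka alone of the mitosis genes was above 0 (198 and 171 counts, ratio 0.25, -0.06 to 0.55).

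The replication genes split in MITO-1. Uhrf1 had 1 count in MITO-1 and 611 in MITO-1c, Cdc6 0 and 314 (at least 102-fold lower), and Ccne1 0 and 284 (at least 92.4-fold lower). Pcna had 546 counts in MITO-1 and 1027 in MITO-1c (log2 ratio -0.88, -1.03 to -0.73), and Mcm2, Mcm5, Mcm7, Mcm10, Tyms and Tk1 were between -0.57 and -0.96 as well. Higher in MITO-1 by over 2-fold were 3 replication genes: Gins1 (133 and 16 counts, ratio 3.05, 2.34 to 3.94), Pold1 (1044 and 232, ratio 2.2, 2.0 to 2.42) and Chaf1a (1353 and 669, ratio 1.05, 0.92 to 1.19). With the 5 members at 0 in MITO-1 set to their bounds, the medians stayed at -2.06 and -4.81.

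**Figure D5:**
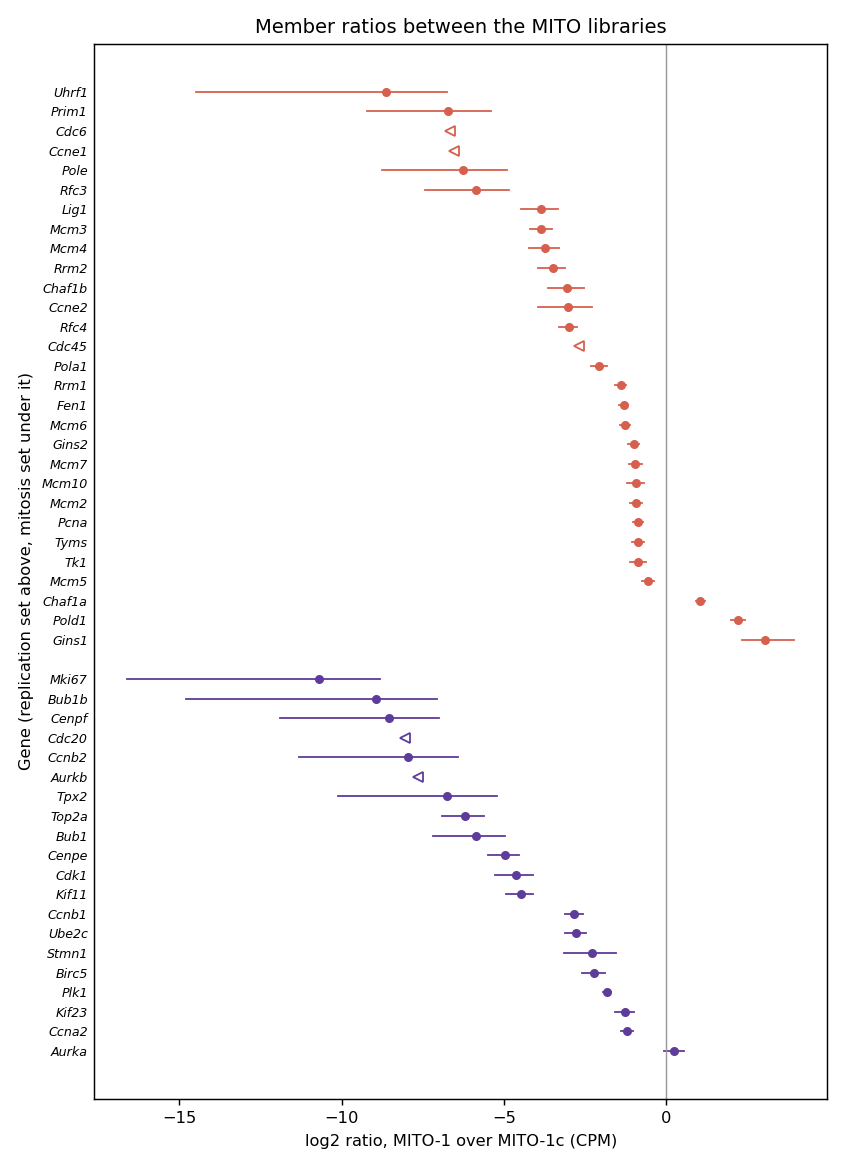
log2 ratio of CPM, MITO-1 over MITO-1c, for 29 replication genes (red, above) and 20 mitosis genes (purple, under them), with 95% counting intervals; open triangles are bounds for genes at 0 in MITO-1. All mitosis genes but Aurka lie under 0, and Gins1, Pold1 and Chaf1a lie above it.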

How the data were processed

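The authors deposited a table of raw counts per gene for all 14 libraries. Per the submitters' processing notes, reads were processed with FastQC 0.11.9, cutadapt 4.0, STAR 2.7.9a and HTSeq 1.99.2 on GRCm38. The sources used here do not state whether the reads keep their strand. Reads of a gene and an overlapping antisense neighbour may therefore be mixed. Besides Gins2, Fen1, Chaf1a and Ccna2, members with over 10% of exon bases so shared were Ube2c (22.8%), Ccne2 (17.4%) and Rfc4 (12.7%). Besides Pcna and Ccnb1, members sharing over 10% of their sequence with transcripts of other genes in the same orientation were Stmn1 (18.9%), Mcm7 (18.1%), Uhrf1 (15.4%) and Cdc20 (10.4%). The study's batch correction and removal of libraries were not applied to these counts, and 0 per-sample columns went unused. Members and lists were chosen with earlier results of these data known. Each comparison was fitted over its own 8 libraries in R 4.3.3 with edgeR 4.0.16 (TMM, genes with at least 5 counts over the fit, quasi-likelihood test, Benjamini-Hochberg adjustment over all genes), with DESeq2 1.42.0 as an alternative. The procedure was tested on simulated data set with less spread between replicates than these libraries showed. That test therefore does not measure how well changes of the members could be found here. Members given by library were those with the most counts of their role or the smallest p in a comparison, and listed genes were named by smallest p. Promoter windows came from RefSeq GRCm38.p6. Intervals are 95% and cover counting error only. The SE of an edgeR log2 fold change was not fitted directly. It was taken as the absolute fold change over the square root of the quasi-likelihood F statistic.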

Additional observations from a re-analysis of the deposited data

Results flagged for a closer look

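Over the 63 groups of 4 libraries looked at (the sums of both sets, the ratio and 18 members in 3 baits), 6 had 1 library far from the other 3, where Dixon's 95% limit flags about 1 in 20 groups by chance. The groups are not independent, since the sums contain the members and the same libraries recur. DPP4 replicate 1 lay far below the other DPP4 libraries in the replication sum (247 normalized CPM), in the mitosis sum (100) and for Cenpe (11.4). ACTB replicate 4 lay far above the other ACTB libraries for Fen1 (88.7) and Top2a (206), and ACTB replicate 2 far below them for Chaf1a (29.5).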

How the results depend on the processing

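The number of members called stayed at 0 in all 42 alternatives over the 3 comparisons (DESeq2, no filter on low counts, the replicate block, shallow libraries left out, each replicate left out and others). The count over all genes moved, from 0 in each comparison with edgeR to 53 in DPP4 against GFP, 141 in DPP4 against ACTB and 73 in ACTB against GFP with DESeq2, and to 6, 60 and 0 without a filter. In DPP4 against ACTB it was 56 without ACTB replicate 2, and in ACTB against GFP 10 without ACTB replicate 2 and 1 without GFP replicate 1. Across 13 alternatives each, the median log2 fold change of the replication set ranged from -0.40 to 0.34, -0.24 to 0.57 and -0.47 to 0.38 in these comparisons, and that of the mitosis set from -0.10 to 0.63, 0.17 to 0.85 and -0.53 to 0.28. The lowest adjusted p of a named member was 0.133 (Kif11, DPP4 against ACTB). Leaving out the 7 members that share over 10% of their exon bases with an opposite-strand gene was chosen after seeing the data.

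Replicate numbers did not pair the libraries: same-numbered libraries correlated from -0.63 to 0.50 in their deviations. With the replicate block, 0, 166 and 0 genes were called, 0 of them members, and the medians of the replication and mitosis sets were 0.30 and 0.17 in DPP4 against GFP, -0.24 and 0.17 in DPP4 against ACTB and 0.38 and 0.28 in ACTB against GFP.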
